A study of Homo sapiens with 27 samples.

Results

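Wide peaks are stretches of RNA over which an antibody against a modified base recovered a run of listed positions of 1000 bases or more. Each peak of the deposited lists consists of 1 or more blocks, separated by gaps in the genome, and a peak was taken as wide where its block sizes added up to 1000 bases or more. Of 76940 peaks in the m1A, m5C, m7G and ac4C lists, 576 met this rule. The m1A list held 412 of them, the m5C list 124, the m7G list 38 and the ac4C list 2.

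The study mapped modified bases in RNA from HepAD38 cells, which derive from a human liver carcinoma and hold an integrated hepatitis B virus genome. The antibodies recognised N1-methyladenosine (m1A), 5-methylcytosine (m5C), N7-methylguanosine (m7G) or N4-acetylcytidine (ac4C). Each antibody had 3 immunoprecipitated (IP) libraries and 3 of the starting RNA (input), and 3 further libraries served pseudouridine (Psi). All 27 libraries were labelled wild type, and their treatment label only names the modification. No label gives a further agent or a time, or says if libraries of 1 group stem from different cultures.

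In such an assay RNA is fragmented, an antibody against the modified base pulls down the fragments that carry it, and both the recovered and the starting RNA are sequenced. A single modified base yields a peak about as broad as the fragments, whereas fragments recovered at many neighbouring positions yield a broad one. m1A blocks base pairing and is best known from tRNA and rRNA and from the 5′ parts of some mRNAs; m5C is written by NSUN and DNMT2 enzymes; m7G forms the mRNA cap and also occurs inside tRNA and mRNA; ac4C is written by NAT10. Peak lists of this kind also depend on the abundance of a transcript, because a long run can be called only where reads cover it.

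The starts of transcripts lay inside some wide peaks, and 6 genes had their RefSeq start inside a wide peak in each of the m1A, m5C and m7G lists. Their start regions are shown because these are the only starts that wide peaks of 3 lists shared. Lower case marks the 35 bases before the start and capitals the first 25 transcribed bases, read 5′ to 3′ on the gene's own strand from RefSeq (GRCh38.p14).
CDK11A, chr1:1724333-1724392, minus strand: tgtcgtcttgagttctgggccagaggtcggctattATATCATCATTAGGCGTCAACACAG
EIF5B, chr2:99337354-99337413, plus strand: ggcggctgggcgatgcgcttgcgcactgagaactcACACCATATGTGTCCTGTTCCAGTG
HNRNPD, chr4:82373967-82374026, minus strand: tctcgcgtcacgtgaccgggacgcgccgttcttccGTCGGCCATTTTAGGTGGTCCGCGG
MALAT1, chr11:65499010-65499069, plus strand: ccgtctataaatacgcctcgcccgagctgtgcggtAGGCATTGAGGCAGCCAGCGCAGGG
PNN, chr14:39175219-39175278, plus strand: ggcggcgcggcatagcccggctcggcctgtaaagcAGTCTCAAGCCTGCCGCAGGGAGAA
TOP1, chr20:41028787-41028846, plus strand: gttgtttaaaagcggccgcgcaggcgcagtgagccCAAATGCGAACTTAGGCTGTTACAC

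Of these 6, CDK11A is a cyclin-dependent kinase with a near-identical neighbour, CDK11B, so that reads of both may be mixed. EIF5B joins the ribosomal subunits at the start codon, HNRNPD binds AU-rich RNA, MALAT1 is a long non-coding RNA of nuclear speckles, PNN is a splicing-associated protein and TOP1 is DNA topoisomerase I. In CDK11A, EIF5B, PNN and TOP1 the outer edge of a wide peak fell on the very base that RefSeq gives as the start. Over all genes, 58 RefSeq starts of 54 genes lay in a wide peak of the same gene, 44 of them in 1 list, 8 in 2 and 6 in 3, and 41 coincided with the edge of the peak. Whether peaks were called along annotated transcripts, which would place edges on annotated starts, is not given. Its part in these counts was not tested. A gene start was held by 12.9% of wide m1A peaks against 4.89% of all m1A peaks. The shares were 12.9% against 4.09% for m5C and 31.6% against 19.97% for m7G. These shares were not adjusted for the length of a peak. The motif TATAAA, searched on both strands of the 300-base start windows, occurred in 13.8% of the 58 windows and in 11.5% of all 35116 windows. HNRNPD and MALAT1 were among the 8 windows with it.

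Wide m1A peaks also held whole miRNA hairpins, which RefSeq places inside host genes. The 4 mature miRNAs that lay completely inside a wide m1A peak are shown because they let a reader see which short RNAs a ratio of such a peak also covers, with the seed (bases 2 to 8) in capitals.
hsa-miR-711, in the COL7A1 peak: gGGACCCAgggagagacguaag
hsa-miR-3655, in the IK peak: gCUUGUCGcugcgguguugcu
hsa-miR-3615, in the SLC9A3R1 peak: uCUCUCGGcuccucgcggcuc
hsa-miR-1244, in the PTMA peak: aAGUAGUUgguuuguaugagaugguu

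The 4 seeds all differ. hsa-miR-711 (chr3:48578914-48578935, minus strand) lay in a wide m1A peak with an RPM ratio of 62.1 and in a wide m5C peak with a ratio of 0.331. The peaks around hsa-miR-3655 (chr5:140647844-140647864, plus strand), hsa-miR-3615 (chr17:74748663-74748683, plus strand) and hsa-miR-1244 (chr2:231713368-231713393, plus strand) had m1A ratios of 0.867, 10.6 and 1.68. These ratios belong to the whole host peak and not to the miRNA. The PTMA peak names 4 near-identical MIR1244 genes, so its reads may be shared among copies.

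RPM (reads scaled to the depth of the pooled libraries) is the unit of the deposited values, and the RPM ratio is the IP value divided by the input value of the same peak. Each list gives 1 IP and 1 input value per peak, pooled over libraries, so no spread between libraries was available for any value and no test across samples was possible. The brackets after a ratio are 95% exact intervals that cover counting error only. The pooled depth recovered from the RPM steps was 280714968 reads for the m1A IP and 364905847 for its input. It was 118320068 and 241116541 reads for m5C, 263344365 and 259416505 for m7G, and 17135274 and 333220799 for ac4C. Every wide peak had at least 727 input reads, so that the counting intervals were narrow and are given for the peaks described in full.

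Wide peaks were few but held much of the listed signal. They made up 1.39% of the m1A peaks, 10.9% of the listed m1A bases and 37.0% of the summed m1A IP RPM. In the m5C list they made up 0.568% of peaks, 4.39% of bases and 26.0% of IP RPM. In the m7G list they made up 0.224% of peaks, 1.88% of bases and 9.17% of IP RPM. The corresponding shares of the input RPM were 32.3%, 13.6% and 10.2%, so only in the m7G list was the share of the IP below that of the input.

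The median wide peak measured 1250 bases in the m1A list, 1225 in the m5C list and 1212 in the m7G list. Most were assembled from several blocks, with a median of 8 blocks in m1A, 7 in m5C and 7 in m7G, spread over a median of 11.8, 13.7 and 12.3 kb of genome. A single uninterrupted block made up 51 wide m1A peaks, 26 wide m5C peaks and 8 wide m7G peaks. Of all 576 widths, 552 were multiples of 25 bases. The blocks of a peak are described here only by their position in the gene, since no exon annotation was used.

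The peaks lay almost entirely inside the spans of their own genes. Of 396 wide m1A peaks of a single gene with a RefSeq span, 392 lay wholly inside it, as did 116 of 118 for m5C and 36 of 37 for m7G. Calling along annotated genes would give such counts by itself, and its part was not tested. From first to last block a wide m1A peak ran over a median of 34.4% of its gene, and 32 of them ran over 90% or more. The medians were 21.3% for m5C and 33.0% for m7G, and 3 m5C and 0 m7G peaks reached 90%. By gene class, 410 of the 435 gene names on wide peaks were protein-coding, 12 were miRNAs, 4 were long non-coding RNAs, 5 were transcribed pseudogenes and 1 was an antisense RNA, while 3 did not match RefSeq.

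**Figure D1:**
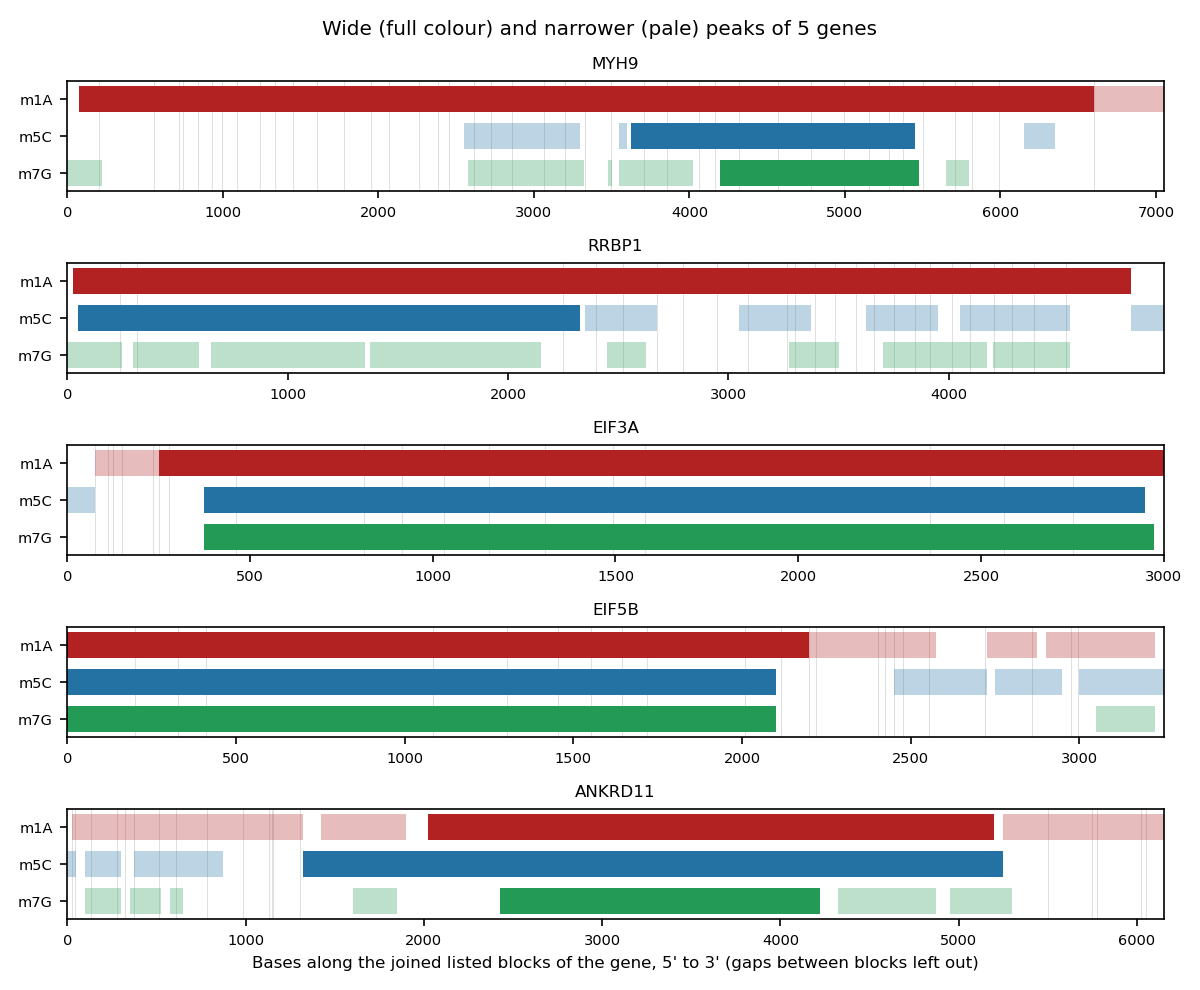
Listed blocks of 5 genes in the m1A, m5C and m7G lists, joined end to end so that the x axis gives bases along the union of blocks from 5′ to 3′, with thin grey lines at the joints. Full colour marks wide peaks and pale colour narrower ones; the m1A peak of MYH9 runs over 6525 bases, while its m5C and m7G peaks take up 1825 and 1275 bases.

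The widest peak of any list was the m1A peak of MYH9, the heavy chain of non-muscle myosin IIA, with 41 blocks and 6525 bases (chr22:36282177-36387938, minus strand). It ran over 99.1% of the gene's span, with 9385 RPM in the IP against 828 in the input and a ratio of 11.3 (11.3 to 11.4). The m1A peaks of RRBP1, a ribosome receptor of the endoplasmic reticulum (ER), and NINL, a centrosomal ninein-like protein, ran over 99.6% and 99.7% of their genes. RRBP1 (chr20:17613928-17682242, minus strand) had 4800 bases in 25 blocks, 10941 RPM in the IP and 2628 in the input, a ratio of 4.16. NINL (chr20:25453122-25585531, minus strand) had 4566 bases and a ratio of 5.35. NUMA1, a spindle pole protein, had 5550 bases in 21 blocks (chr11:72006216-72062595, minus strand) at 1007 against 110 RPM, a ratio of 9.16.

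Among the 8 widest m1A peaks all ratios lay above 2. A ratio of 2 or more was seen in 45.1% of wide and in 44.7% of all m1A peaks. The ratios here are not divided by the m1A list's median of 1.67. PLEC, the giant cytolinker plectin, measured 4625 bases at 1959 RPM in the IP against 15.7 in the input, a ratio of 125 (122 to 128). MYH14, another non-muscle myosin heavy chain, had 3500 bases and a ratio of 20.4, and the centrosomal CEP250 had 3750 bases and a ratio of 3.22. The m1A peak of ANKRD11, a large ankyrin-repeat regulator of transcription, was a single block of 3175 bases (chr16:89281754-89284928, minus strand) with 2587 against 1100 RPM, a ratio of 2.35.

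The same stretch of ANKRD11 gave the widest m5C peak, 1 block of 3925 bases (chr16:89281704-89285628, minus strand). It held 7644 RPM in the IP and 1808 in the input, a ratio of 4.23 (4.21 to 4.24). The widest m5C peaks differed in enrichment. ATRX, a chromatin remodeller, had 2425 bases and a ratio of 7.42, EIF5B had 2100 bases and 8.19, and BOD1L1, a protein of replication forks, had 1975 bases and 14.1. EIF3A, a subunit of the initiation factor eIF3, had 2575 bases with 3832 RPM in the IP and 4324 in the input, a ratio of 0.886 (0.883 to 0.889). The scaffold protein AKAP12 and PNN also lay below 1, at 0.965 and 0.834, and RRBP1 stood at 2.28.

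In the m7G list EIF3A was the widest, at 2600 bases (chr10:119036047-119059299, minus strand), 4946 against 3595 RPM and a ratio of 1.38 (1.37 to 1.38). The 8 widest m7G peaks, which also included EIF5B, C22orf46, MALAT1, ANKRD11, CALD1, TALAM1 and DSP, had ratios from 1.22 to 1.62. The highest of these was EIF5B, and the lowest was C22orf46.

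The enrichment of wide peaks depended on the list. In m1A the median RPM ratio was 1.67 both for wide peaks and for all peaks, and 1.38 for peaks of 500 to 999 bases. In m5C it was 3.24 for wide peaks, 1.92 for peaks of 500 to 999 bases and 1.01 for all peaks. It did not rise further with width: over the 35 m5C peaks of 1500 bases or more it was 1.99, and 48.6% of these had a ratio of 2 or more. In m7G it was 1.25 for wide peaks and 1.36 for all peaks. Since the members were defined by width alone, these ratios were not used to choose them.

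Counted at a 2-fold limit, 186 wide m1A peaks (45.1%) had an RPM ratio of 2 or more, against 44.7% of all m1A peaks. The share among wide m1A peaks was thus near that of the whole list. In m5C, 80 wide peaks (64.5%) had such a ratio, against 32.1% of all peaks. No wide m7G peak had one, against 37.6% of all m7G peaks. A ratio of 0.5 or less was seen in 21 wide m1A peaks (5.10%), against 10.8% of all, and in 14 wide m5C peaks (11.3%), against 28.0%. No wide m7G peak was 2-fold lower, against 0.0472% of all. The ratios are relative to depth, and their medians over all peaks were 1.67, 1.01 and 1.36 in m1A, m5C and m7G. Divided by these, the wide m1A peaks split into 34.0% at 2 or more and 24.0% at 0.5 or less, against 30.9% and 27.0% of all m1A peaks, and the median wide m7G peak stood at 0.920. The corresponding shares in m5C stayed at 64.5% and 11.3%.

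**Figure D2:**
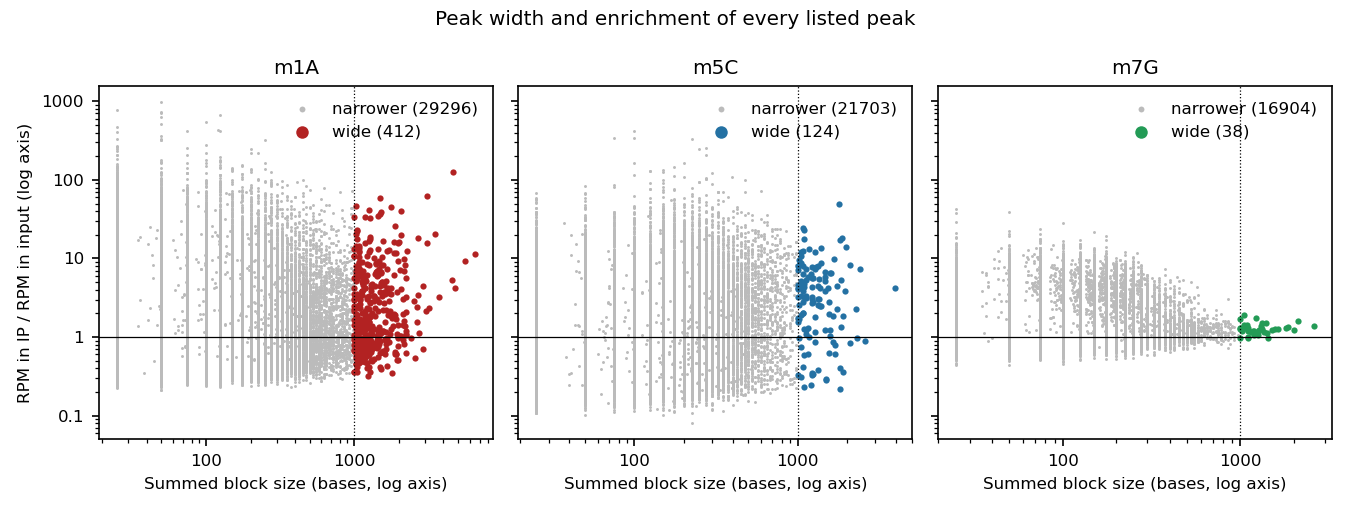
RPM ratio of every peak (y, log axis) against its summed block size in bases (x, log axis) for the 3 lists with more than 2 wide peaks; grey points are narrower peaks, coloured points wide ones, and the dotted line marks 1000 bases. Wide m7G peaks lie between 0.973 and 1.93, while wide m1A and m5C peaks reach 125 and 49.1.

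The ratios of wide m7G peaks lay close together and those of the other lists did not. Wide m7G peaks ran from 0.973 to 1.93, with quartiles at 1.17 and 1.39. Close quartiles were not particular to them, as m7G peaks of 500 to 999 bases had quartiles at 1.02 and 1.39. Wide m1A peaks ran from 0.317 to 125 and wide m5C peaks from 0.217 to 49.1. A ratio below 1 was seen in 130 wide m1A peaks (31.6%), against 33.0% of all, in 26 wide m5C peaks (21.0%), against 49.7%, and in 4 wide m7G peaks (10.5%), against 27.7%. All of these had a log2 enrichment above 0 in the authors' deposited table, which lists no wide peak below 0. For MYH9 in the m5C list, for example, the authors' deposited table gives a log2 enrichment of 1.48 where the RPM ratio was 0.217. The deposited enrichment is therefore not the quotient of the deposited RPM values.

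**Figure D3:**
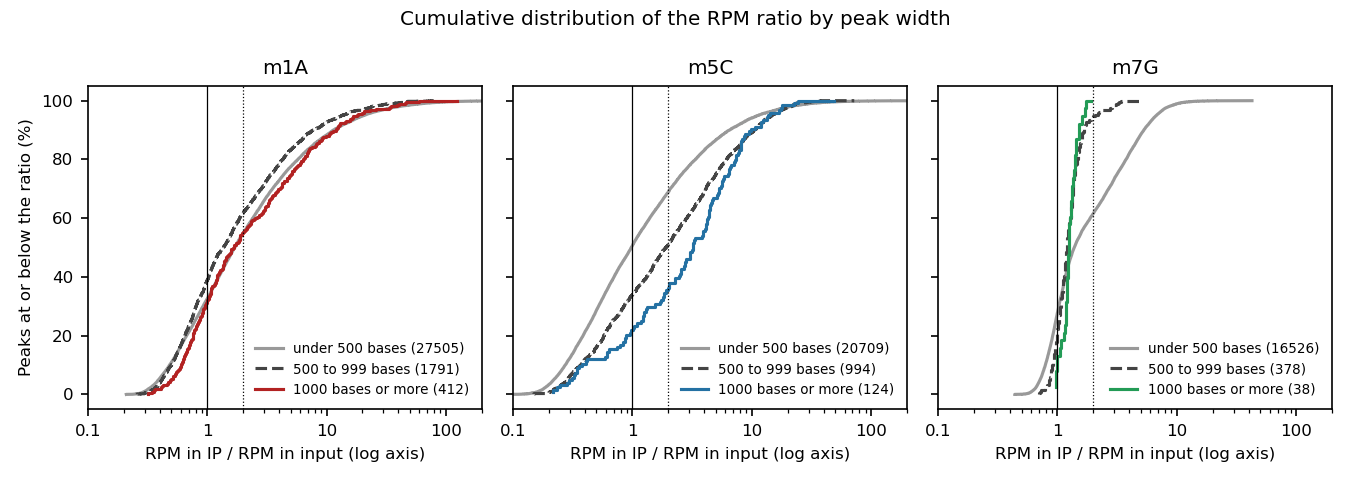
Cumulative share of peaks (y, %) at or below each RPM ratio (x, log axis) for peaks under 500 bases, of 500 to 999 bases and of 1000 bases or more, with lines at ratios of 1 (solid) and 2 (dotted). The wide m1A curve runs close to that of the narrowest peaks, the wide m5C curve lies to the right with a median of 3.24, and the wide m7G curve rises steeply around 1.25.

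Read density moved with width in both the IP and the input. The median wide m1A peak had 185 IP RPM and 100 input RPM per kb of peak, against 20.5 and 10.1 over all m1A peaks. For m5C the values were 462 and 156 RPM per kb against 19.9 and 20.01, and for m7G 552 and 474 against 61.7 and 43.3. The part that transcript abundance has in the number and width of wide peaks was not tested. Next to the limit of 1000 bases, the 64 m1A peaks of 950 to 999 bases had a median ratio of 1.72 and the 53 of 1000 to 1049 bases 1.57. In m5C the medians were 4.03 for 24 peaks and 3.63 for 14 peaks.

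Within the same gene, wide peaks could be set against the gene's narrower peaks in the same list. Peaks were matched by gene name only, so they need not lie in the same transcript. Wide m5C peaks had the higher summed ratio in 75 of 104 genes (72.1%), with a median of 3.88 against 1.26. In m1A this was so in 182 of 330 genes (55.2%), with medians of 1.73 and 1.76. In m7G it was so in 22 of 33 genes (66.7%), with medians of 1.25 and 1.11.

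Among wide m1A peaks that name a single gene, the highest ratios belonged to PLEC and to genes of collagens and of the cytoskeleton. The peak that names both COL7A1 and MIR711, at 62.1, is outside this ranking. PPP1R12C, a regulatory subunit of myosin phosphatase, reached 59.6 with 799 RPM in the IP and 13.4 in the input. The collagen chains COL18A1, COL27A1 and COL9A3 reached 46.1, 45.3 and 40.9, with inputs of 16.1, 9.59 and 5.27 RPM. All 5 of these single-gene peaks thus had an input of at most 16.1 RPM, against a median of 151 RPM over wide m1A peaks. Because the input is the divisor of the ratio, ranking by the ratio itself favours peaks with a low input.

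The lowest m1A ratios lay in peaks with a high input, which the same ranking favours at its lower end. NAP1L1, a histone chaperone, had 478 RPM in the IP and 1510 in the input, a ratio of 0.317 (0.315 to 0.318). PDIA3, a protein disulfide isomerase of the ER, stood at 0.346, and FGB, the fibrinogen beta chain, at 0.356 with 3051 against 8563 RPM. The mitochondrial chaperone HSPA9 and the ER chaperone HSPA5 followed at 0.357 and 0.359. Input RPM in these 5 peaks ran from 868 to 8563.

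The highest m5C ratio was that of ANKRD12, an ankyrin-repeat protein related to ANKRD11, in 1 block of 1800 bases (chr18:9254946-9256745, plus strand). It had 6383 RPM in the IP against 130 in the input, a ratio of 49.1 (48.5 to 49.7). IGF2BP2, an RNA-binding protein, followed at 24.4, FBXO22, an F-box protein, at 22.7, RB1CC1, an autophagy scaffold, at 18.0, and SMC4, a condensin subunit, at 17.8. The 5 lowest were MYH9 (0.217), SNRNP70 of the U1 snRNP (0.234), MYH14 (0.246), the myosin MYO18A (0.283) and 1 of the PLEC peaks (0.294). MYH9, MYH14 and PLEC were thus among the 5 lowest wide m5C peaks and also among the 8 widest m1A peaks.

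In m7G the highest ratios were 1.93 for UBAP2L, a stress granule protein, 1.73 for HNRNPD, 1.69 for the splicing factor SRSF4, 1.62 for EIF5B and 1.52 for CDK11A. The 4 wide m7G peaks below 1 were SEC63 of the ER translocon (0.973), the golgin GOLGA4 (0.980), the GTP-binding ribosome biogenesis protein GTPBP4 (0.983) and the ER protein CALU (0.988). Their counting intervals all ended below 1, the nearest at 0.995 for CALU, but a spread between libraries was not available.

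Named groups of genes differed in how often a member had a wide m1A peak, and the share over all genes with an m1A peak was 4.18%. Of 17 genes of the cytoskeleton and of giant scaffolds with an m1A peak, 9 had a wide one. Besides MYH9 and PLEC these included the desmosomal DSP, 2900 bases at 0.703, and the spectrin SPTBN1, 2225 bases at 2.06. Their median ratio was 1.76, and only DSP lay below 1, although 4 of the 9 lay below the median of all m1A peaks, 1.67. Of 7 genes of the ER translocon and of ribosome receptors, 5 had a wide m1A peak: RRBP1, the protein disulfide isomerase P4HB (1.95), the kinesin receptor KTN1 (0.392), SEC62 (1.15) and SEC63 (0.737).

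Of 12 translation factor genes with an m1A peak, 5 had a wide one, all with ratios above 1, although 4 of their 6 wide peaks lay below the m1A list's median. These were EIF3A (1.13), EIF5B (1.39), EIF4G1, EEF2 and EIF3B. EIF4G1, the scaffold of the cap-binding complex, had 2 wide peaks, at 1.59 and 2.12, and the elongation factor EEF2 had 2081 against 1110 RPM, a ratio of 1.87. Of 17 chaperone genes, 6 had a wide m1A peak, and 5 of these lay below 1 (all 6 below the list's median), against 31.6% of wide m1A peaks and 33.0% of all m1A peaks below 1. HSP90AB1, a cytosolic HSP90, had 7741 RPM in the IP against 12104 in the input, a ratio of 0.640, and the mitochondrial HSPD1 stood at 0.605. CALR, an ER lectin chaperone, was the exception at 1.57.

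Of 37 chromatin regulator genes, 9 had a wide m1A peak, 6 of them with a ratio of 2 or more, also after division by the list's median, and their median ratio was 7.02. Over all m1A peaks 44.7% had such a ratio, and 30.9% after the division. The remodellers SRCAP and CHD2 stood at 1.89 and 0.808. Among genes of secreted plasma proteins, 7 of 28 had a wide m1A peak, with ratios from 0.356 for FGB to 8.48 for APOE. APOE, the lipid carrier, had 5304 RPM in the IP and 625 in the input over 1413 bases (chr19:44905796-44909395, plus strand). Complement C3 had 2 wide peaks, at 3.67 and 2.47, while the protease inhibitor A2M stood at 0.773 and coagulation factor F5 at 0.951.

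The remaining groups stood on both sides of the share of 4.18%, again without adjustment for transcript length, which is short for many ribosomal protein genes. Of 73 cytosolic ribosomal protein genes with an m1A peak only RPL3 had one, at 1.43 over 1121 bases. Of 238 C2H2 zinc finger genes, 2 had one, ZNF512B (7.24) and ZNF609 (1.58). None of 5 HOX genes had one, a group too small to tell apart from the share of 4.18%. Of 12 nucleolar protein genes, NCL and TCOF1 had 2 wide m1A peaks each: NCL, nucleolin, at 0.711 and 0.926, and TCOF1, treacle, at 3.78 and 3.44. Of 7 extracellular matrix genes, only FN1, fibronectin, had wide m1A peaks, at 0.910 and 0.550. Of 9 long non-coding RNAs with an m1A peak, 3 had wide ones. NEAT1 had 1 block of 2700 bases at 3.41. MALAT1 had 2 wide m1A peaks, at 1.10 and 0.460, and its antisense RNA TALAM1, with nearly the same reads, had 2 at 1.08 and 0.459.

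In the m5C list wide peaks fell on 1.35% of genes with a peak. There the cytoskeleton group had 3 of 18 genes with a wide peak, MYH9, PLEC and DSP, and all 4 of their peaks lay below 1, at a median of 0.335, against 21.0% of wide m5C peaks and 49.7% of all m5C peaks below 1. Chaperones (0 of 18), ribosomal proteins (0 of 70) and zinc finger genes (0 of 281) had no wide m5C peak. Among 18 or 70 genes a count of 0 is near the share of 1.35%, and transcript length was not adjusted for. The chromatin regulators CHD2 and BPTF had one each, at 4.17 and 5.10. TCOF1 stood at 3.24 in m5C. In the m7G list, where 0.481% of genes with a peak had a wide one, the groups contributed EIF3A, EIF5B, MYH9, DSP, NCL, SEC63, MALAT1 and TALAM1.

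MALAT1 carried the highest IP level of any wide peak described here, 56820 RPM in the m5C IP against 4262 in the input over 1175 bases (chr11:65499038-65500212, plus strand), a ratio of 13.3. Its first wide m1A peak had 4845 against 4401 RPM and its m7G peak 4425 against 3291 RPM. On the opposite strand TALAM1, its antisense RNA, was listed with nearly the same values, 4488 against 4142 RPM in m1A and 3961 against 3139 RPM in m7G. In m1A, 3 pairs of wide peaks lay on opposite strands of the same place, of which 2 were MALAT1 with TALAM1 and 1 was NUMA1 with LOC100128494. The m5C list held 1 such pair, CD3EAP at 250.9 RPM and ERCC1 at 250.2 RPM in the IP. Reads of a gene and of its antisense partner cannot be told apart in these pairs, because the labels name a stranded kit but not whether counting used the strand.

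Some genes had wide peaks in several lists. Among peaks that name a single gene, 402 genes had a wide peak, 301 of them in 1 list, 81 in 2 and 20 in 3. The m1A and m5C lists shared 88 genes, which are 23.8% of the 369 m1A genes and 76.5% of the 115 m5C genes. The m1A and m7G lists shared 33, or 8.94% and 89.2%, and the m5C and m7G lists shared 20, or 17.4% and 54.1%. The ac4C genes were shared with none.

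Counted by peaks, 92.5% of wide m1A peaks overlapped an m5C peak of any width by at least 1 base on the same strand, against 38.2% of all m1A peaks. All 124 wide m5C peaks overlapped an m1A peak (100%; all m5C peaks, 52.6%), and all 38 wide m7G peaks overlapped both an m1A and an m5C peak (100%; all m7G peaks, 65.5% and 46.4%). Overlap with ac4C peaks was 46.6% for wide m1A, 50.8% for wide m5C and 65.8% for wide m7G peaks, against 8.67%, 8.01% and 10.3% of all peaks. Overlap rises with the length of a peak. Among peaks of 500 to 999 bases, 83.9% of m1A peaks overlapped an m5C peak and 97.9% of m5C peaks an m1A peak. Of m7G peaks of that width, 99.7% overlapped an m1A peak and 97.9% an m5C peak. Overlap with ac4C at that width was 28.1% for m1A, 33.1% for m5C and 43.4% for m7G. High overlap with the m1A and m5C lists was thus not particular to wide peaks. No value matched more closely for length is given. Of the wide m1A peaks, 15 (3.64%) overlapped no peak of the other 3 antibody lists, against 45.5% of all m1A peaks.

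Summits of the Psi list, 16672 peaks called without an input, were counted per kb to take out length. Wide m1A peaks held 0.919 summits per kb against 0.665 over all m1A peaks, wide m5C peaks 1.04 against 0.659, and wide m7G peaks 1.82 against 1.11. EIF3A held 10 summits inside its wide peak in each of the 3 lists, and no peak of these lists held more. Since wide peaks also had the higher input density, the part of coverage in these counts was not tested.

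The 20 genes with a wide peak in 3 lists were MYH9, GOLGA4, ANKRD11, EIF3A, EIF5B, MALAT1, AKAP12, PNN, DSP, CALD1, PPIG, ANKRD12, RBM25, CDK11A, TOP1, HNRNPD, MDN1, PRPF38B, WDR60 and ZC3H15. The m5C ratio was the highest of the 3 in 11 of them, the m7G ratio in 5 and the m1A ratio in 4. With each ratio divided by its list's median, these counts were 14, 3 and 3. No such counts are given for all genes with a peak in the 3 lists. The medians over the 20 genes were 1.21 for m1A, 2.53 for m5C and 1.32 for m7G.

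In MYH9 the ratio was 11.3 in m1A, 0.217 in m5C and 1.23 in m7G. In GOLGA4 the order was turned, with 0.579 in m1A, 4.22 in m5C and 0.980 in m7G. EIF3A stayed near 1 in all lists, at 1.13, 0.886 and 1.38. AKAP12 did so too, at 0.916, 0.965 and 1.05. TOP1 stood at 1.25 in m1A and 8.83 in m5C.

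Of the 88 genes with a wide peak in both the m1A and the m5C list, 66 had the higher ratio in m5C and 22 in m1A (71 and 17 after division by the list medians). The median ratio was 1.08 in m1A and 4.17 in m5C. Both ratios lay above 1 in 34 genes and below 1 in 3, while 39 were below 1 in m1A and above 1 in m5C, and 12 the other way round. After division by the list medians these counts were 15, 6, 58 and 9. No such counts are given for all genes with a peak in both lists. At least 2-fold lower in m5C and at least 2-fold higher in m1A were 7 genes: PLEC, COL27A1, COL7A1, MYH14, MYH9, SNRNP70 and KIF1C. KIF1C, a kinesin, and COL7A1, the collagen of anchoring fibrils, are named because they complete this count, after their values were seen. The same number, 7, met this limit after the division. Below 1 in m1A and at least 2-fold higher in m5C were 36 genes, among them BOD1L1 (0.916 and 14.1), GOLGA4 and ATRX (0.980 and 7.42).

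The input libraries of the m1A and the m5C lists differed for the same genes, and this moved with the ratios. Where the m1A ratio was the higher, the m1A input per kb was lower than the m5C input in 18 of 22 genes. Where the m5C ratio was the higher, the m1A input per kb was the higher one in 56 of 66 genes. PLEC had 3.39 input RPM per kb in m1A and 142 in m5C, and MYH9 had 127 and 1295. The IP level per kb was higher in the list with the higher ratio in 15 of 22 and in 64 of 66 genes. How far the ratios rest on the difference between the inputs was not tested.

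For 10 genes the wide m1A and wide m5C peaks had identical first and last positions and the same width, so that IP and input values refer to the same stretch. They included ATRX, ARID4A, WBP4, C1orf131, CDC42BPA, ARID4B, LARP7, DDX10 and RTF1 and were named after their values were seen. In ATRX (chrX:77635987-77683053, minus strand) the m1A values were 427 RPM in the IP and 436 in the input, and the m5C values 1686 and 227. In LARP7, which binds the 7SK RNA, they were 162 and 188 in m1A and 1038 and 97.3 in m5C. The m5C ratio was the higher one in all 10, and the m1A input exceeded the m5C input in all 10, by at least 1.35 times. The median quotient of m1A over m5C input was 1.96 in these 10. Among the 506 identical peaks of any width it was 1.10, taken where both inputs had at least 10 reads. For the ratios no such value over all identical peaks is given. EIF5B and WDR60, a dynein intermediate chain, had identical wide peaks in m5C and m7G. EIF5B had 11255 against 1374 RPM in m5C and 1624 against 1003 in m7G.

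Some genes carried several wide peaks in 1 list. In m1A 17 genes had 2 and 6 genes had 3: CEP250, FGFR3, GOLGA3, GOLGA4, GOLGB1 and PTPRF. Of these, GOLGA3, GOLGA4 and GOLGB1 are golgins, long coiled-coil proteins of the Golgi. In m5C 4 genes had 2 wide peaks: GOLGA4, PLEC, PRRC2C and ZC3H13. These genes, apart from CEP250, GOLGA4 and PLEC, were named because of that count.

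The GC content of the 300-base start windows of wide-peak genes was read from RefSeq as a further feature that the rule did not use. Its median was 65.0% both for the 305 genes with a wide m1A peak that the table held and for all genes with an m1A peak. It was 67.7% for the 130 genes with a wide m1A peak of ratio 2 or more and 63.5% for the 100 with a ratio below 1. In m5C the order was turned, at 62.7% for 66 genes and 65.7% for 19 genes. These medians have overlapping middle ranges and are given as a description.

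The ac4C list held 2 wide peaks. VIM, vimentin, an intermediate filament protein typical of mesenchymal cells, had 1275 bases in 9 blocks (chr10:17229667-17237389, plus strand). It was listed with 580 RPM in the IP and 2.18 in the input, a ratio of 266 (247 to 287). MSN, moesin, which links actin to the membrane, had 1225 bases in 9 blocks (chrX:65731127-65739871, plus strand), with 186 against 2.35 RPM and a ratio of 79.1 (73.1 to 85.6). Both peaks are at least 2-fold higher in the IP, as are 99.6% of all ac4C peaks. The VIM peak ran over 82.6% of its gene and the MSN peak over 5.70%.

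Neither gene had a wide peak elsewhere. VIM had no peak in the m1A, m5C and m7G lists, and MSN had 1 m5C peak of 125 bases with 0.685 RPM in the IP. Of 16 fibroblast and mesenchymal markers, VIM among them, 12 had an ac4C peak, with a summed 1106 RPM in the IP and 3.74 in the input. In the m1A, m5C and m7G lists 2, 4 and 1 of the 16 had a peak. Their summed levels there were 2747, 536 and 4221 RPM in the IP and 4622, 2196 and 4589 in the input. The 1 marker in m7G was FN1. Peaks of any kind named 4867 genes in the ac4C list, and 9185, 8852 and 8029 in the m1A, m5C and m7G lists. Of 15 hepatocyte markers, 2 had an ac4C peak, at a summed 6.71 RPM in the IP, while 14, 13 and 14 had a peak in the m1A, m5C and m7G lists. ALB, APOA1 and TTR were among the 13 without an ac4C peak, and COL6A3, FN1, PDGFRB and TAGLN were the mesenchymal markers without one. The part of RNA from other cells in the 2 wide ac4C peaks was not tested. In bulk RNA, fewer cells of a type and less RNA per cell cannot be told apart.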

How the data were processed

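The authors deposited 4 antibody lists in which every peak has 1 IP and 1 input level in RPM, pooled over libraries. The log2 enrichment, the p-value and its adjusted value of each peak are the authors' deposited values, and the last 2 were not used for calls. Psi peaks were called with MACS 2.2.6, per the file headers, and the pileup signal and the fold ratio over local background were taken as deposited. The submitters' processing notes name HISAT2, StringTie, DESeq and the build hg38 but no roles for them. The caller of the antibody lists and whether reads were deduplicated are not given in the sources used here.

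Width is the summed block sizes. Read numbers were recovered from the steps of the RPM values, all of which were whole multiples of 1 read within 0.1 read, and gave 95% exact (Clopper-Pearson) intervals, which cover counting error only. A peak was called at an RPM ratio of 2 or more, or 0.5 or less. Overlap needed 1 base on the same strand. A gene with several wide peaks was given the ratio of their summed RPM. Ratios of different lists rest on different inputs. No count model was run, because each list has 1 pooled value per arm.

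Gene names are those of the files, and 432 of 435 on wide peaks matched a RefSeq table of GRCh38.p14, directly or as an older name (WDR60 is now DYNC2I1, SLC9A3R1 NHERF1 and CD3EAP POLR1G). Sequences come from RefSeq. No genome sequence was used.

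Per list the text names the 8 widest wide peaks, the 5 highest and 5 lowest ratios and up to 4 genes of each of 12 gene lists by width, and besides these up to 10 genes with wide peaks in most lists. Genes of the Y chromosome and peaks naming several genes are outside this rule. The members, gene lists and marker lists were chosen with earlier results of these data known. Some genes that the rule names are not reported here. Genes outside the rule were named after their values were seen. The read recovery, intervals and overlap counts were tested on simulated data. Tools were Python 3.11.15, pandas 2.3.3, numpy 2.4.6, scipy 1.17.1 and matplotlib 3.10.9.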

Additional observations from a re-analysis of the deposited data

How the results depend on the processing

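Alternatives chosen before these files were opened gave 66 values. Of these, 40 stayed within an interval or within 1.5 times, 24 moved and 2 turned direction. For shares and medians this interval was taken over peaks or genes, as if each were independent. It is not the counting interval of a ratio and holds no spread between libraries. Counts were compared by the factor of 1.5. With a limit of 1500 bases there were 131, 35 and 8 wide m1A, m5C and m7G peaks and 0 for ac4C, the share of wide peaks at least 2-fold higher became 53.4% (m1A) and 48.6% (m5C), the lower share in m1A 3.05%, the median ratio 2.23 (m1A) and 1.99 (m5C), wide peaks exceeded narrower ones of the gene in 55.2% (m5C) and 83.3% (m7G), and 32 genes had wide peaks in several lists. Width as genomic span gave 10992, 6151, 6846 and 1792 peaks (m1A, m5C, m7G, ac4C), with 67.4%, 80.9% and 84.2% of the first 3 overlapping another list. A limit of 1.5-fold gave 52.9% higher and 14.1% lower in m1A and 15.8% higher in m7G. After division by the list median, 34.0% of wide m1A peaks were higher and 24.0% lower, and the median ratio was 0.9995 in m1A and 0.920 in m7G. With overlap of 50% of the peak, 61.4% of wide m1A peaks overlapped another list.

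No paired analysis was possible because the values are pooled over libraries; for the same reason leaving out a replicate was not possible. Every wide peak has at least 727 input reads, so the counting intervals of their ratios are narrow. These reads belong to peaks already taken as wide, so they cannot show if depth limited which peaks became wide. The pooled ac4C IP had 17135274 reads, against 118320068 to 280714968 for the IPs of the other lists. The part of depth in the number of wide peaks per list was not tested. Agreement between libraries, and with it the error of every ratio, stays unknown.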
